A study of Homo sapiens with 24 samples.

Results

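The genes described here are 10 human transporters of copper, platinum drugs and other drugs: SLC31A1, SLC31A2, ATP7A, ATP7B, ABCB1, ABCC1, ABCC2, ABCC3, ABCC4 and ABCG2. They were taken by name, as the entries of the deposited count table whose Ensembl identifier carries these symbols, and they make up 10 of the 63299 genes listed. Of the 10, 8 passed the filter on low counts and were tested among 20240 genes, while ABCB1 and ABCC3 stayed at or next to 0 reads.

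Whole transcriptome sequencing covered A2780, a platinum-sensitive human ovarian cancer cell line, and A2780cis, its isogenic platinum-resistant counterpart, with 24 libraries in 8 groups of 3. Each line was either left without drug or exposed to 1 μM 5-FdU-ECyd, and both kinds of flask were harvested after 6 h or 12 h. 5-FdU-ECyd is a duplex drug that joins a fluorinated deoxyuridine, an inhibitor of thymidylate synthesis, to ethynylcytidine, an inhibitor of RNA synthesis. All A2780cis groups came from cells that were given cisplatin in recurring passages to keep them resistant, and the labels do not state when the last such passage was, so that an effect of recent cisplatin and a lasting property of the line cannot be told apart. Resistance is represented by 1 pair of lines. The paper calls the libraries of a group biological triplicates but does not state that they came from separate cultures, and p-values measure the spread between these libraries.

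Platinum drugs enter cells in part through copper carriers. SLC31A1 (CTR1) is the high-affinity copper importer of the plasma membrane and has been linked to cisplatin uptake, while SLC31A2 (CTR2) resides mostly in endosomes and lysosomes. ATP7A and ATP7B are copper-pumping ATPases that load enzymes with copper in the Golgi, export excess copper and have been linked to platinum sequestration and efflux. The ABC proteins use ATP to pump substrates out of the cell: ABCB1 (P-glycoprotein) and ABCG2 (BCRP) are the classical pumps of multidrug resistance, ABCC1 (MRP1) and ABCC2 (MRP2) export glutathione conjugates, ABCC3 (MRP3) exports glucuronides and bile acids, and ABCC4 (MRP4) exports cyclic nucleotides and nucleotide analogues.

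The start regions of SLC31A1, ABCC4 and ABCC2 are shown because the levels of these genes moved in the same direction in both lines after 12 h of drug, SLC31A1 and ABCC4 downward and ABCC2 upward. The RefSeq promoter table on GRCh38.p14 held 7 of the 10 genes, SLC31A2, ABCC1 and ABCC3 not being among them. Each sequence is the 250 bases before the start, 5′ to 3′ on the strand of the gene, with matches to 6 short motifs in capitals: the GC box GGGCGG, the metal response element core TGCNCNC, the CCAAT box CCAAT, the TATA box TATAAA, the E box CACGTG and the antioxidant response element core TGACNNNGC, each searched on both strands.
SLC31A1, chr9:113221294-113221543, plus strand: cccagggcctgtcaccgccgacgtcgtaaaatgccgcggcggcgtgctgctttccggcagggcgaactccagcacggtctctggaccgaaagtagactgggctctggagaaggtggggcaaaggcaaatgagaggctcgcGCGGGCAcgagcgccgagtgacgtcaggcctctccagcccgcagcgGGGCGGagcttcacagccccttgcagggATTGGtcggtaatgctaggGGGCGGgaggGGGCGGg
ABCC4, chr13:95301452-95301701, minus strand: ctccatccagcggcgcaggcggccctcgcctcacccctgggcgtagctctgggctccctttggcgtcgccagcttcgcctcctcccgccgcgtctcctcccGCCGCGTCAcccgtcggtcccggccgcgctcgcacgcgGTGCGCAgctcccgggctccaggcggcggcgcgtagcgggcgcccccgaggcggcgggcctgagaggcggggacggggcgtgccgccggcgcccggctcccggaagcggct
ABCC2, chr10:99782390-99782639, plus strand: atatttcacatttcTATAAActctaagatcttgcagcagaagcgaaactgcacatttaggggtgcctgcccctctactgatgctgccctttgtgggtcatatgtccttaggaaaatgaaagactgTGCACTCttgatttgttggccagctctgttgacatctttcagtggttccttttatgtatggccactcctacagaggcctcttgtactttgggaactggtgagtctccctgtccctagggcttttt

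The window of SLC31A1 held 3 GC boxes, the nearest of them 7 to 2 bases before the start, 1 CCAAT box 36 to 32 bases before it and 1 metal response element core 110 to 104 bases before it. Its G+C content was 68.0%, against a median of 58.0% over the 35116 windows of the table. ABCC4 had the window richest in G+C of the 3, at 80.4%, with 1 metal response element core and 1 antioxidant response element core and no GC box, CCAAT box or TATA box. ABCC2 had 45.6% G+C, 1 metal response element core and 1 TATA box letter match, which lay 236 to 231 bases before the start. No matches of different motifs overlapped in these windows. Of all 35116 windows, 49.1% held the metal response element core, 42.6% the GC box, 32.0% the CCAAT box, 10.9% the antioxidant response element core, 10.7% the TATA box and 6.34% the E box, so that a match is a description of the letters only.

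Between 11077368 and 21901406 reads were counted per library, and 3 reads, taken here as the floor, corresponded to 0.141 to 0.301 CPM (counts per 1000000 reads of the library, with TMM normalization). Libraries of a group correlated with each other at 0.9858 to 0.9948 in log2 CPM across genes. Of the epithelial and ovarian carcinoma markers, KRT19, CDH1, PAX8, WT1, MUC16 and ESR1 had at most 6 reads in any library and EPCAM at most 0.946 CPM as a mean of an untreated group. KRT18 averaged 1.11 and 1.81 CPM in untreated A2780 and 23.4 and 26.1 CPM in untreated A2780cis at 6 h and 12 h. Its partner KRT8 averaged 0.751 and 1.15 CPM in untreated A2780 and 4.39 and 5.43 CPM in untreated A2780cis. The mesenchymal filament VIM was at 2090 to 2620 CPM in untreated cells of both lines. The mesenchymal cadherin CDH2 averaged 49.7 and 46.3 CPM in untreated A2780 and 5.93 and 4.32 CPM in untreated A2780cis, and the fibroblast collagen COL1A1 5.07 and 8.38 against 0.413 and 1.42 CPM. The leukocyte marker PTPRC and the endothelial marker PECAM1 had at most 1 read.

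ABCB1 had 0 reads in all 24 libraries, among 363055429 reads counted in all. This allows a level of up to 0.00821 CPM over the libraries together, a limit that covers counting error only. ABCC3 had at most 4 reads in any library. Its reads summed to 17.0 in A2780, where 7 of 12 libraries had any, and to 1.80 in A2780cis, where 2 of 12 libraries did (fractions come from reads with several alignments). Neither gene was tested, and no fold change is given for them: treatment brought neither of them above the floor in A2780cis, and in A2780 the highest treated library of ABCC3 had 3 reads against 4 in the highest untreated one.

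In untreated cells, levels of different genes were compared per kilobase of annotated exon. In A2780 at 12 h SLC31A1 stood first with 20.3 ± 0.957 CPM per kilobase (mean ± SD, n = 3, as in all following values of this kind). ABCC1 and ABCC4 followed with 9.11 ± 1.10 and 8.04 ± 0.386 CPM per kilobase, and their libraries overlapped. SLC31A2 had 2.59 ± 0.0330 and ATP7B 0.868 ± 0.0665 CPM per kilobase. ABCG2 and ATP7A, at 0.487 ± 0.0585 and 0.432 ± 0.0376, overlapped each other, and ABCC2 was last with 0.193 ± 0.0521. In A2780cis at 12 h the order began with ABCC1 at 14.4 ± 1.87 CPM per kilobase, not separated from SLC31A1 at 13.5 ± 0.596, and ABCC4 came next at 7.23 ± 0.135. The lower places were the same as in A2780: SLC31A2 at 3.25 ± 0.542, ATP7B at 0.605 ± 0.0408, ABCG2 at 0.447 ± 0.111 overlapping ATP7A at 0.371 ± 0.0413, and ABCC2 at 0.201 ± 0.0321. Among untreated cells of 6 h the first places differed. In A2780 ABCC4 at 9.65 ± 0.412 CPM per kilobase stood above ABCC1 at 6.57 ± 0.649 without overlap, after SLC31A1 at 24.3 ± 1.59. In A2780cis SLC31A1 came first at 15.3 ± 1.32, overlapping ABCC1 at 11.6 ± 2.48, which overlapped ABCC4 at 9.25 ± 0.852. The importer of copper and the pumps ABCC1 and ABCC4 were thus the most abundant transcripts of the 10 per length in both lines. The annotated exons of ATP7A and ATP7B together span 28126 and 18854 bases, against 8569 and 7022 bases for their longest transcripts, and on the latter length ATP7A stood above ABCG2 in both lines.

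The first comparison asked in which of these genes the platinum-resistant line differs from the sensitive one without drug. SLC31A1 was lower in A2780cis than in A2780 at both times, and ABCC1 was higher at both. ATP7B was lower in A2780cis at 12 h. At 6 h 1 of the 8 tested transporters was higher and 1 lower, where 25.0% of all tested genes were higher and 22.9% lower. At 12 h 1 was higher and 2 were lower, against 25.4% and 27.5% of all tested genes. The counts thus show no excess of called transporters over the transcriptome as a whole, and 8 genes are too few for a closer comparison. In bulk RNA, less RNA per cell and fewer cells with the RNA cannot be told apart.

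**Figure D1:**
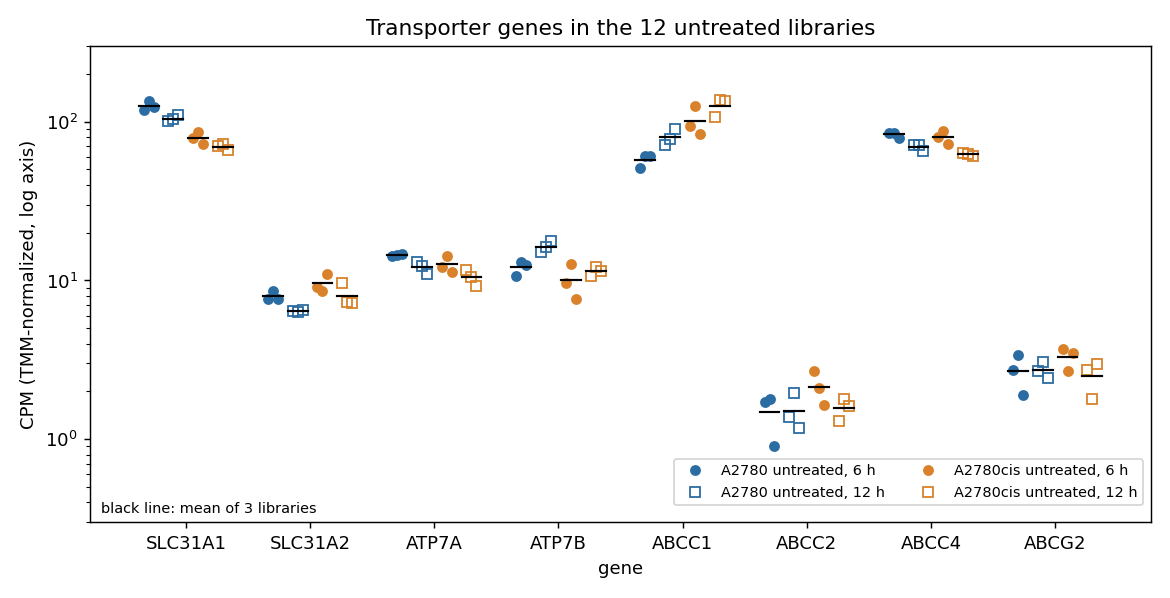
TMM-normalized CPM (log axis) of the 8 tested transporters in the 12 untreated libraries, with blue for A2780, orange for A2780cis, filled circles for 6 h, open squares for 12 h and a black line for the mean of 3 libraries. SLC31A1 lay lower and ABCC1 higher in A2780cis without overlap of the groups at either time, while the ABCG2 libraries of the lines overlapped.

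The copper importer SLC31A1 was measured at 118, 134 and 123 CPM in the untreated A2780 libraries of 6 h and at 78.6, 85.5 and 72.0 CPM in those of A2780cis. At 12 h it had 100.3, 103 and 109.9 CPM in A2780 and 70.3, 72.3 and 66.3 CPM in A2780cis. Every A2780cis library thus lay under every A2780 library at the same time. The log2 fold change (FC) was −0.67 ± 0.09 (SE) at 6 h and −0.59 ± 0.08 at 12 h, with adjusted p-values of 2.95e-07 and 1.72e-06 (edgeR's quasi-likelihood test, Benjamini-Hochberg adjustment over all tested genes, as throughout). SLC31A1 was 37.1% lower in the resistant line at 6 h and 33.4% lower at 12 h. Reads with several alignments gave it fractional counts in 19 of the 24 libraries, and its pseudogene SLC31A1P1 had at most 2 reads in any library.

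SLC31A2, the endosomal relative of SLC31A1, was not called between the lines. Its values were 7.61, 8.61 and 7.64 CPM in A2780 and 9.06, 8.62 and 11.0 CPM in A2780cis at 6 h, and 6.40, 6.31 and 6.47 CPM against 9.58, 7.35 and 7.18 CPM at 12 h. The A2780cis libraries lay above those of A2780 at both times, at 6 h by a margin of 8.61 to 8.62 CPM. The log2 FC was 0.27 ± 0.16 at 6 h (adjusted p = 0.159) and 0.33 ± 0.15 at 12 h (adjusted p = 0.0660). At 12 h the adjusted p was 0.0437 with scaling by library size alone and 0.0462 without the third untreated A2780cis library. Of the exon bases of SLC31A2, 64.0% (1582 bases) also belong to exons of FKBP15 on the opposite strand, and the strand setting of the counting is not stated. FKBP15 was higher in A2780cis, by 0.36 ± 0.07 in log2 FC at 6 h and 0.28 ± 0.07 at 12 h, with adjusted p-values of 1.84e-04 and 1.72e-03, and its part in the values of SLC31A2 was not tested.

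Of the copper ATPases, ATP7B had 10.6, 13.2 and 12.5 CPM in untreated A2780 and 9.61, 12.7 and 7.69 CPM in untreated A2780cis at 6 h, where the groups overlapped (log2 FC −0.28 ± 0.16, adjusted p = 0.166). The difference at 6 h passed the threshold without the second untreated A2780cis library (log2 FC −0.48, adjusted p = 0.0196). At 12 h it had 15.2, 16.2 and 17.7 CPM in A2780 and 10.6, 12.1 and 11.5 CPM in A2780cis, with no overlap. ATP7B was thus 30.4% lower in the resistant line at 12 h (log2 FC −0.52 ± 0.14, adjusted p = 3.51e-03). ATP7A was not called between the lines, with log2 FC values of −0.21 ± 0.13 at both times and adjusted p-values of 0.209 and 0.162. It ranged from 11.0 to 14.6 CPM in untreated A2780 and from 9.28 to 14.3 CPM in untreated A2780cis. With scaling by library size alone, which leaves a median log2 FC of −0.09 over all genes at 6 h, ATP7A was called lower at that time (log2 FC −0.31, adjusted p = 0.0440).

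ABCC1, the pump for glutathione conjugates, was the only one of the 8 tested transporters called higher in the resistant line. At 6 h it had 50.9, 61.0 and 60.4 CPM in A2780 and 94.5, 125 and 83.4 CPM in A2780cis, and at 12 h 71.3, 77.4 and 90.1 CPM against 107, 136 and 135 CPM. The groups did not overlap at either time. The level in A2780cis was 1.76-fold that in A2780 at 6 h (log2 FC 0.82 ± 0.13, adjusted p = 1.25e-05) and 1.58-fold at 12 h (0.66 ± 0.13, adjusted p = 1.07e-04). ABCC4, the pump for nucleotides, was not called: it had 79.2 to 85.4 CPM in A2780 and 72.6 to 87.2 CPM in A2780cis at 6 h, and 65.6 to 71.4 against 61.2 to 63.5 CPM at 12 h, where the groups did not overlap. The 95% interval of its log2 FC ran from −0.27 to 0.14 at 6 h and from −0.36 to 0.05 at 12 h (adjusted p-values 0.642 and 0.198).

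The 2 pumps of low abundance were measured with less precision. ABCC2 had 0.909 to 1.80 CPM in untreated A2780 and 1.64 to 2.68 CPM in untreated A2780cis at 6 h, and 1.18 to 1.97 against 1.30 to 1.80 CPM at 12 h. ABCG2 had 1.91 to 3.41 against 2.71 to 3.70 CPM at 6 h and 2.42 to 3.07 against 1.80 to 2.97 CPM at 12 h. The groups overlapped in each of these 4 comparisons. The interval of the log2 FC ran from −0.04 to 1.07 for ABCC2 and from −0.20 to 0.82 for ABCG2 at 6 h, and from −0.45 to 0.55 and −0.58 to 0.35 at 12 h.

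The second comparison asked how the transporters respond to 5-FdU-ECyd in each line. After 12 h, ABCC4, ABCC1 and SLC31A1 fell and ABCC2 and SLC31A2 rose in both lines, and ATP7B fell in A2780cis. In A2780 2 of the 8 tested transporters rose and 3 fell, where 28.6% of all tested genes rose and 26.1% fell. In A2780cis 2 rose and 4 fell, against 31.0% and 28.9% of all tested genes. The median log2 FC of the 8 was −0.07 in A2780 and −0.43 in A2780cis, beside medians of 0.02 and 0.04 over all tested genes. ATP7A and ABCG2 were not called in either line. The treatment and line comparisons share the untreated libraries of each time. CPM values are shares of the reads of a library, and the amount of RNA per cell was not measured. Rises and falls with this drug, which holds an inhibitor of RNA synthesis, are thus relative to the other transcripts.

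**Figure D2:**
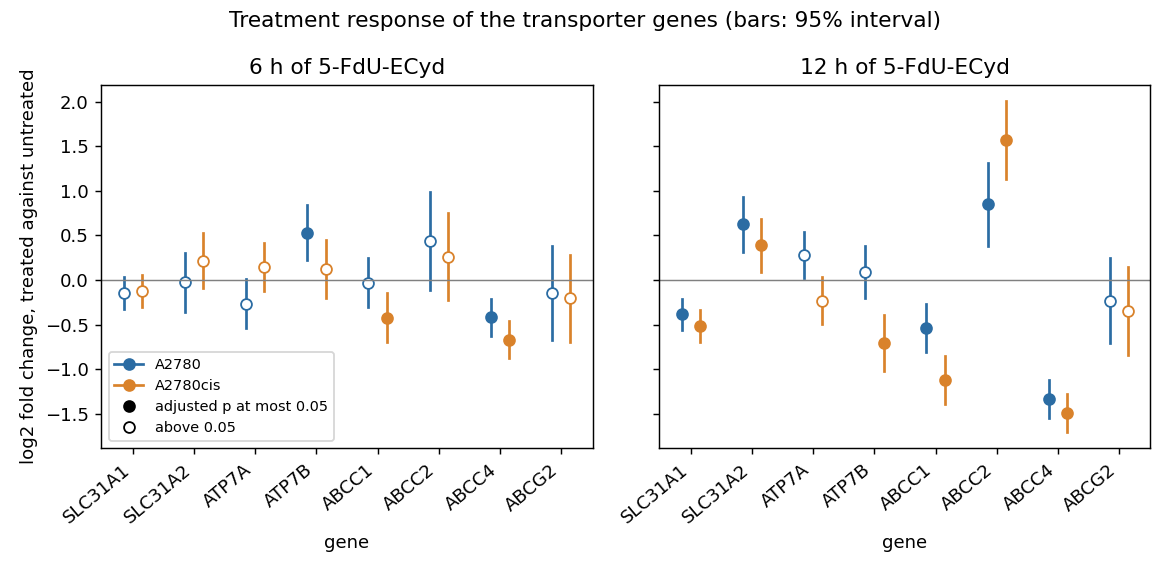
Fitted log2 FC of treated against untreated cells for the 8 tested transporters at 6 h (left) and 12 h (right), blue for A2780 and orange for A2780cis, with bars for the 95% interval and filled points where the adjusted p-value is at most 0.05. At 12 h ABCC4 lay at −1.34 and −1.49 and ABCC2 at 0.85 and 1.57 in A2780 and A2780cis.

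Among the pumps, ABCC4 had the largest decrease. Untreated A2780 libraries of 12 h had 71.3, 71.4 and 65.6 CPM and treated ones 29.9, 25.9 and 26.9 CPM. In A2780cis the values were 63.5, 62.5 and 61.2 CPM without drug and 26.3, 21.4 and 19.0 CPM with it. No treated library came near an untreated one in either line. ABCC4 fell by 60.4% in A2780 (log2 FC −1.34 ± 0.10, adjusted p = 5.00e-11) and by 64.4% in A2780cis (−1.49 ± 0.10, adjusted p = 6.83e-12). The decrease was present at 6 h, at 57.1, 63.5 and 66.7 CPM in treated A2780 against 85.3, 85.4 and 79.2 CPM, and at 53.7, 48.7 and 48.0 CPM in treated A2780cis against 79.6, 87.2 and 72.6 CPM. There the groups did not overlap either, and the log2 FC was −0.42 ± 0.10 in A2780 (adjusted p = 2.83e-03) and −0.67 ± 0.10 in A2780cis (adjusted p = 1.60e-05).

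ABCC1 fell in both lines at 12 h. In A2780 it had 47.2, 60.3 and 56.5 CPM with drug against 71.3, 77.4 and 90.1 CPM without (log2 FC −0.54 ± 0.13, adjusted p = 1.10e-03). In A2780cis it had 57.9, 64.2 and 51.3 CPM against 107, 136 and 135 CPM (log2 FC −1.13 ± 0.13, adjusted p = 5.82e-08). Treated and untreated libraries did not overlap in either line, and the treated libraries of the lines overlapped each other, at 47.2 to 60.3 and 51.3 to 64.2 CPM. With scaling by library size alone the decrease in A2780 did not pass the threshold (log2 FC −0.32, adjusted p = 0.0783). Under that scaling the median over all tested genes at 12 h was 0.24 in A2780 and 0.15 in A2780cis, where TMM gave 0.02 and 0.04. At 6 h ABCC1 was called in A2780cis alone, with 71.4, 73.3 and 81.1 CPM against 94.5, 125 and 83.4 CPM (log2 FC −0.42 ± 0.13, adjusted p = 0.0165), whereas A2780 had a log2 FC of −0.03 ± 0.14 (adjusted p = 0.895). The call at 6 h ended without the second untreated A2780cis library (log2 FC −0.24, adjusted p = 0.189), without the first or the second treated one (adjusted p = 0.0537 and 0.0569) and with scaling by library size alone (log2 FC −0.33, adjusted p = 0.107).

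ABCC2 rose from a low level. At 12 h it had 1.39, 1.97 and 1.18 CPM in untreated and 2.87, 2.30 and 3.01 CPM in treated A2780, and 1.30, 1.80 and 1.62 CPM in untreated and 4.95, 5.00 and 3.99 CPM in treated A2780cis. All treated libraries lay above the untreated ones of their line, and those of A2780cis lay above those of A2780. The treated level was 1.80-fold the untreated one in A2780 (log2 FC 0.85 ± 0.23, adjusted p = 2.69e-03) and 2.96-fold in A2780cis (1.57 ± 0.21, adjusted p = 6.33e-07). At 6 h ABCC2 was not called, its log2 FC being 0.44 ± 0.27 in A2780 (adjusted p = 0.226) and 0.26 ± 0.24 in A2780cis (adjusted p = 0.437). Per kilobase of exon, ABCC2 moved from the last place among the 8 tested genes in untreated A2780cis to the fifth, at 0.593 ± 0.0726 CPM per kilobase; on the length of the longest transcripts it came to rank 7.

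**Figure D3:**
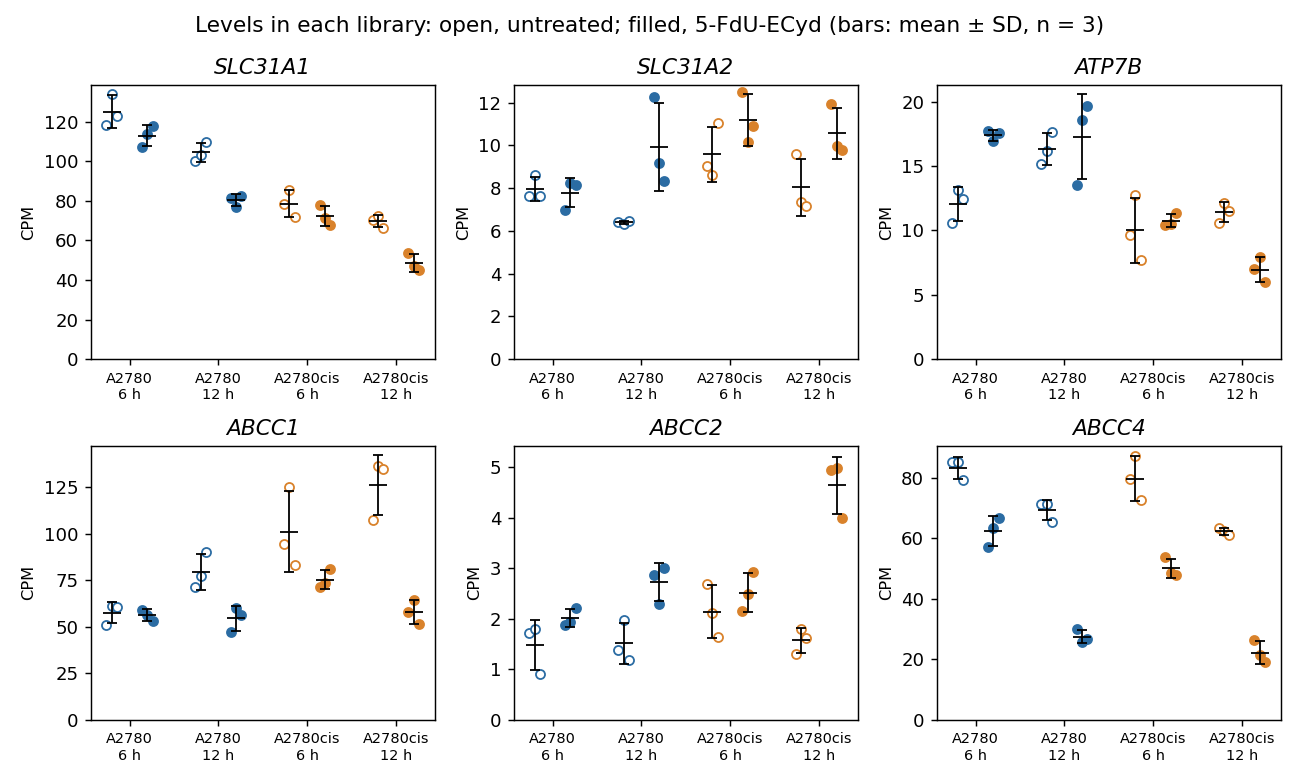
CPM in each library of 6 transporters over the 8 groups, with open points for untreated and filled points for treated cells and bars for mean ± SD of 3 libraries; all axes start at 0. ABCC4 lay lower with drug at both times in both lines, and ABCC1, apart between the lines in untreated cells, overlapped between them among the treated libraries of 12 h.

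The copper importer SLC31A1 fell at 12 h in both lines. Treated A2780 libraries had 81.4, 76.8 and 82.5 CPM against 100.3, 103 and 109.9 CPM without drug, and treated A2780cis libraries 53.8, 47.2 and 45.0 CPM against 70.3, 72.3 and 66.3 CPM. The groups did not overlap. The decrease was 23.2% in A2780 (log2 FC −0.38 ± 0.08, adjusted p = 4.50e-04) and 30.1% in A2780cis (−0.52 ± 0.09, adjusted p = 1.27e-05). With scaling by library size alone the decrease in A2780 did not pass the threshold (log2 FC −0.16, adjusted p = 0.0899). At 6 h the log2 FC was −0.15 ± 0.08 and −0.12 ± 0.09, with adjusted p-values of 0.205 and 0.315. Over all 8 groups the level of SLC31A1 was highest in untreated A2780 of 6 h and lowest in treated A2780cis of 12 h, a range of 1.36 in log2 CPM.

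SLC31A2 moved the other way. At 12 h it had 12.3, 9.19 and 8.36 CPM in treated A2780 against 6.40, 6.31 and 6.47 CPM, and 11.9, 9.99 and 9.79 CPM in treated A2780cis against 9.58, 7.35 and 7.18 CPM. Treated libraries lay above untreated ones in both lines, in A2780cis by a margin of 9.58 to 9.79 CPM. The log2 FC was 0.62 ± 0.15 in A2780 (adjusted p = 9.74e-04) and 0.39 ± 0.15 in A2780cis (adjusted p = 0.0231). In A2780cis the call ended without the first treated library (log2 FC 0.27, adjusted p = 0.156), without the second or the third untreated one (adjusted p = 0.104 and 0.113), with no filter on low counts (adjusted p = 0.0967) and in a fit of the compared groups alone (adjusted p = 0.0590). FKBP15, which shares exon bases with SLC31A2, changed at 12 h by −0.12 ± 0.07 in log2 FC in A2780 (adjusted p = 0.154) and −0.53 ± 0.07 in A2780cis (adjusted p = 7.02e-07). Reads over the shared bases were not counted apart, and the part of FKBP15 in the SLC31A2 values was not tested. At 6 h the log2 FC of SLC31A2 was −0.03 ± 0.16 for A2780 and 0.22 ± 0.15 for A2780cis, with adjusted p-values of 0.921 and 0.291.

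ATP7B had the response that differed most between the lines at 12 h. In A2780 it rose at 6 h, to 17.7, 16.9 and 17.6 CPM from 10.6, 13.2 and 12.5 CPM (log2 FC 0.53 ± 0.15, adjusted p = 9.79e-03), a call that ended without the first untreated library (log2 FC 0.44, adjusted p = 0.0714). At 12 h the A2780 groups overlapped, at 13.5, 18.6 and 19.7 CPM with drug and 15.2, 16.2 and 17.7 CPM without (log2 FC 0.09 ± 0.14, adjusted p = 0.633). Untreated A2780 also had more ATP7B at 12 h than at 6 h (log2 FC 0.44 ± 0.15). That difference and the rise with drug at 6 h rest on the same untreated libraries of 6 h. In A2780cis there was no call at 6 h (log2 FC 0.12 ± 0.16, adjusted p = 0.614). At 12 h ATP7B fell there to 6.99, 7.92 and 5.98 CPM from 10.6, 12.1 and 11.5 CPM, with no overlap (log2 FC −0.71 ± 0.15, adjusted p = 3.25e-04). Treated A2780cis cells of 12 h held the lowest level of ATP7B of all groups.

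ATP7A was not called for treatment in either line. At 12 h it had 15.9, 13.9 and 14.4 CPM in treated A2780 against 13.1, 12.4 and 11.0 CPM, groups that did not overlap (log2 FC 0.28 ± 0.13, adjusted p = 0.0628). It had 11.0, 7.81 and 7.98 CPM in treated A2780cis against 11.6, 10.4 and 9.28 CPM, where they did (log2 FC −0.23 ± 0.13, adjusted p = 0.132). The value of A2780 passed the threshold in a fit of the compared groups alone (adjusted p = 0.0257) and with scaling by library size alone (log2 FC 0.50, adjusted p = 8.90e-04), and that of A2780cis without the first treated library (log2 FC −0.43, adjusted p = 5.63e-03). ATP7A shares 689 exon bases with PGAM4 on the opposite strand, and 382 with the pseudogene C4orf46P2 and 97 with PGK1 on its own strand. In A2780 at 12 h PGAM4 and PGK1 fell (log2 FC −0.36 ± 0.11 and −0.48 ± 0.11) and C4orf46P2 rose (1.26 ± 0.41, adjusted p = 0.0118), and their part in the values of ATP7A was not tested. ABCG2 overlapped between treated and untreated libraries in all 4 comparisons, its log2 FC at 12 h being −0.23 ± 0.23 for A2780 and −0.35 ± 0.24 for A2780cis (adjusted p-values 0.408 and 0.218). Its 95% intervals reached from −0.71 to 0.24 and from −0.84 to 0.15.

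In the 6 h comparisons, 2 of the 8 tested transporters were called in A2780, ATP7B upward and ABCC4 downward, where 29.4% of all tested genes were called in either direction. In A2780cis 2 were called as well, ABCC4 and ABCC1, both downward, against 30.7% of all tested genes. ABCC4 was thus the only one of the 8 called at both times in both lines.

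Whether the response differed between the lines was tested as the difference of the log2 FC values, A2780cis minus A2780. At 12 h 3 of the 8 tested transporters passed, where 23.7% of all tested genes did. All 3 had the lower response in A2780cis, as had 14% of all tested genes, against 9.7% with the higher one. ATP7B had the largest difference at −0.79 ± 0.21 (adjusted p = 7.75e-03). ABCC1 followed at −0.58 ± 0.19 (adjusted p = 0.0232). Its decrease was larger in the line that had more of it without drug, but both values rest on the same untreated libraries of 12 h. ATP7A differed by −0.51 ± 0.18 (adjusted p = 0.0423), with opposite signs in the lines, neither of which was called alone. For ABCC2 the difference of 0.72 ± 0.32 did not pass (adjusted p = 0.100), nor did those of SLC31A1 (−0.14 ± 0.12), SLC31A2 (−0.23 ± 0.21), ABCC4 (−0.15 ± 0.14) and ABCG2 (−0.11 ± 0.33).

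The ATP7B difference kept its call whichever of the 12 libraries was left out. That of ABCC1 ended when any of 7 of the 12 was left out, namely the first or the second untreated A2780, the second or the third treated A2780, the second or the third untreated A2780cis or the third treated A2780cis library, with log2 values from −0.69 to −0.50 over the 12 and adjusted p-values up to 0.0811. That of ATP7A ended without any library but the first untreated A2780, the third untreated A2780cis or the first treated A2780cis one, with values from −0.69 to −0.42 and adjusted p-values up to 0.113. It also ended with no filter on low counts (adjusted p = 0.0905) and with the compared groups fitted alone (adjusted p = 0.116). At 6 h none of the 8 passed, where 3.07% of all tested genes did. The unadjusted p-value was under 0.05 for 2 of them, ATP7A (0.41 ± 0.19, adjusted p = 0.262) and ABCC1 (−0.39 ± 0.19, adjusted p = 0.306), and the DESeq2 Wald test called 0 of the 8 as well.

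Untreated cells also moved between the times. In A2780, 3 of the 8 passed between 6 h and 12 h, where 26.9% of all tested genes did: SLC31A1 was lower at 12 h (log2 FC −0.26 ± 0.08, adjusted p = 0.0256), and ATP7B and ABCC1 were higher (0.44 ± 0.15 and 0.47 ± 0.13, adjusted p = 0.0297 and 0.0118). In A2780cis 1 of the 8 passed, against 39.9% of all tested genes: ABCC4 was lower at 12 h (−0.35 ± 0.10, adjusted p = 6.77e-03). In A2780 ABCC4 missed the threshold narrowly at −0.26 ± 0.10 (adjusted p = 0.05002), as did ABCC1 in A2780cis at 0.32 ± 0.13 (adjusted p = 0.0508). Each of the A2780 calls ended without some single library, SLC31A1 without the second of 6 h or the first or second of 12 h, ATP7B without the first of 6 h or the second or the third of 12 h, and ABCC1 without the first of 6 h or the third of 12 h, with adjusted p-values up to 0.125, 0.164 and 0.0877. The ABCC4 call in A2780cis ended with scaling by library size alone (log2 FC −0.19, adjusted p = 0.141) and with no filter (−0.30, adjusted p = 0.0582).

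Genes that handle copper or platinum beside these transporters were followed as 5 lists, described by their counts beside the shares of all tested genes. In untreated A2780cis at 12 h, 25.4% of all tested genes were higher and 27.5% lower. With 12 h of drug, 28.6% rose and 26.1% fell in A2780, and 31.0% rose and 28.9% fell in A2780cis. These shares are the background for each of the 5 lists. Of the copper-handling list (chaperones, copper enzymes and reductases), 12 genes were tested. Of those, 2 were higher and 2 lower in untreated A2780cis at 12 h. At 6 h 5 were higher and 3 lower, where 25.0% and 22.9% of all tested genes were. STEAP3, a metalloreductase, had 18.0 ± 2.12 CPM in untreated A2780 and 77.4 ± 8.70 CPM in untreated A2780cis at that time (log2 FC 2.10 ± 0.13), and its relative STEAP2 had 4.42 ± 0.560 and 1.14 ± 0.0632 CPM (−1.95 ± 0.19). CCS, the chaperone that hands copper to SOD1, was lower by −0.40 ± 0.12 at 12 h and by −0.85 at 6 h. With 12 h of drug, 3 of the 12 rose and 2 fell in A2780, and 7 rose and 3 fell in A2780cis. STEAP2 rose in both lines (log2 FC 1.25 ± 0.15 in A2780 and 0.89 ± 0.21 in A2780cis), as did CCS (0.62 ± 0.12 and 0.98 ± 0.12), while CUTC, a copper-binding protein, fell in both (−0.78 ± 0.12 and −1.21 ± 0.13). The median log2 FC of the list was −0.04 in A2780 and 0.38 in A2780cis.

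Metallothioneins bind copper and platinum in the cytosol. Of 11 genes, 3 (MT1F, MT1X and MT2A) were abundant enough to be tested, and the other 8 had at most 5 reads in any library. MT1F was at 1.25 ± 0.267 CPM in untreated A2780 and 0.137 ± 0.0716 CPM in untreated A2780cis at 12 h, with at most 4 reads per library in the latter. MT2A rose with 12 h of drug in A2780cis, from 3.36 ± 0.609 to 7.62 ± 1.29 CPM (log2 FC 1.18 ± 0.20, adjusted p = 1.43e-05), and was not called in A2780, while MT1X fell in A2780 (−0.82 ± 0.20, adjusted p = 1.33e-03).

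Of 14 other carriers and channels linked to platinum, 9 were tested, and the organic cation carriers SLC22A2 and SLC22A3 had at most 1 read in any library. Between the untreated lines at 12 h, 3 were higher and 4 lower in A2780cis. LRRC8C, a subunit of the volume-regulated anion channel, had 11.7 ± 1.43 CPM in A2780 and 1.05 ± 0.284 CPM in A2780cis (log2 FC −3.47 ± 0.22). The carnitine carrier SLC22A5 and the cation exporter SLC47A1 were higher, by 1.43 ± 0.12 and 1.15 ± 0.09. With 12 h of drug 2 rose and 2 fell in A2780, and 3 rose and 3 fell in A2780cis. The channel subunit LRRC8D fell in both lines (−0.78 ± 0.09 and −0.38 ± 0.09), as did the iron carrier SLC11A2 (−0.58 ± 0.09 and −0.50 ± 0.09).

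Of 18 other ABC proteins and associated genes, 13 were tested. In untreated A2780cis at 12 h 6 were higher and 4 lower. The lowest relative to A2780 was TAP1, which pumps peptides for antigen presentation, with 217 ± 16.5 CPM in A2780 and 8.27 ± 0.457 CPM in A2780cis (log2 FC −4.71 ± 0.11). Its partner TAP2 was lower by −0.95 ± 0.09 and ABCC6 by −1.84 ± 0.15. After 12 h of drug 6 rose and 2 fell in each line. TAP1 rose to 54.5 ± 4.85 CPM in A2780cis (2.72 ± 0.11). ABCB6, a porphyrin carrier, rose in both lines (1.08 ± 0.11 and 0.97 ± 0.11), and so did the sterol pump ABCG4 (3.08 ± 0.27 and 1.73 ± 0.22), from 0.806 ± 0.0616 CPM in A2780 and 3.01 ± 0.486 CPM in A2780cis. The median log2 FC of this list was 0.26 and 0.12, above that of the 8 transporters in each line. After 6 h of drug, 7 of the 13 rose in A2780 and 9 in A2780cis, and 0 fell in either line. Over all tested genes, 16% rose and 13.4% fell in A2780 at 6 h, and 14.4% and 16.3% in A2780cis. Untreated cells of 12 h against 6 h also had 7 and 9 of the 13 higher and 0 lower, and both comparisons share the untreated libraries of 6 h.

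The last list holds 15 regulators and membrane anchors of the pumps, of which 13 were tested. The nuclear receptor NR1I2, an inducer of ABC pumps, had 0 reads in every library. In untreated A2780cis at 12 h, 4 were higher and 2 lower, HIF1A among the lower at −1.39 ± 0.11. After 12 h of drug 0 rose and 4 fell in A2780 (median log2 FC −0.19), where 28.6% of all tested genes rose and 26.1% fell. In A2780cis 2 rose and 9 fell (median −0.40), against 31.0% and 28.9% of all tested genes. RXRA, the partner of several nuclear receptors, fell in both lines (−1.31 ± 0.16 and −1.98 ± 0.17), as did SP1, which binds GC boxes (−0.42 ± 0.10 and −1.02 ± 0.11). With scaling by library size alone the SP1 decrease in A2780 did not pass the threshold (log2 FC −0.20, adjusted p = 0.157). Radixin (RDX), an anchor of ABCC2 at the membrane, fell in A2780cis from 236 ± 24.7 to 92.7 ± 16.6 CPM (−1.35 ± 0.12). Its response was lower there than in A2780 by −1.07 in log2 FC. ABCC2 rose in both lines, and a link between RDX and ABCC2 was not tested.

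**Figure D4:**
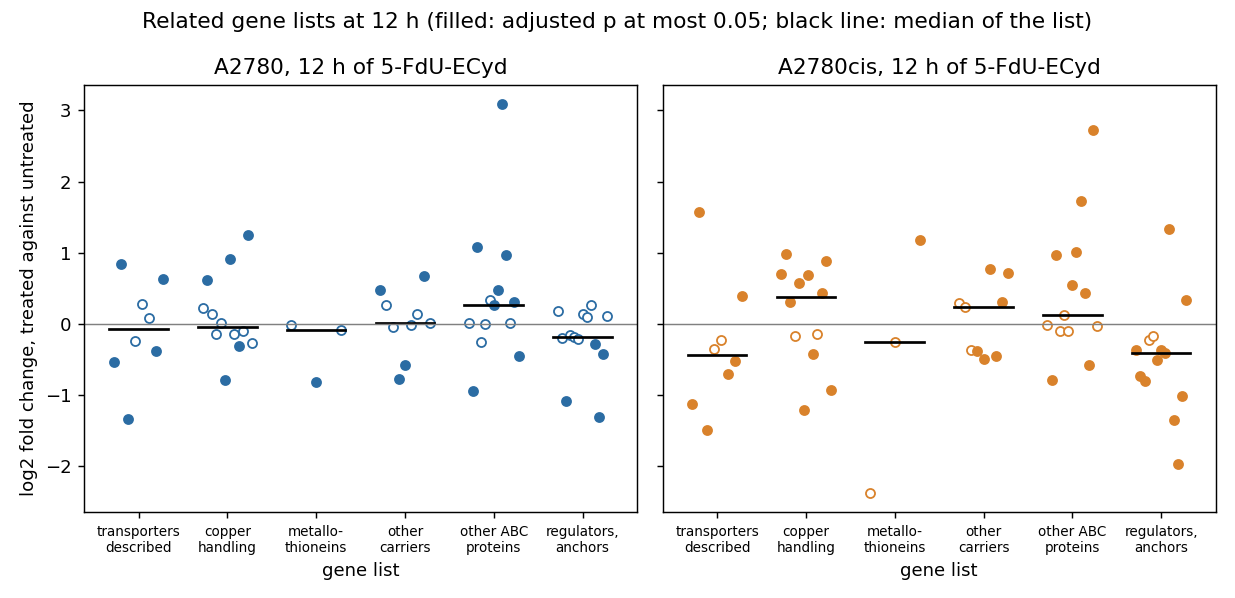
Log2 FC of treated against untreated cells at 12 h for the 8 tested transporters and the 5 related gene lists in A2780 (left) and A2780cis (right), 1 point per gene, filled where the adjusted p-value is at most 0.05, with a black line at the median of each list. The transporters had medians of −0.07 and −0.43 and the other ABC proteins of 0.26 and 0.12.

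The genes most like each transporter over the 8 group means of log2 CPM were named among 10755 genes, as a description over 8 points that share libraries. SLC31A1 was most like EIF2B3 (Pearson r = 0.9947), ABCC4 like HSPA4 (0.9958), ABCC1 like CENPO (0.9878), SLC31A2 like ZDHHC13 (0.9753), ATP7B like EXTL3 (0.9661) and ATP7A like TTC33 (0.9379). ABCC2 and ABCG2 were too low for this search.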

How the data were processed

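Total RNA of A2780 and A2780cis cells was sequenced in 24 libraries. The values are estimated counts as the authors deposited them: reads were trimmed with Trimmomatic, aligned with STAR 2.5.2b to GRCh38 and counted on exons with featureCounts, with fractions for reads with several alignments and reads over several genes allowed, and no strand setting stated. Reads are described as single by the labels and as paired by the paper. Here counts were rounded and analysed with edgeR 4.0.16 in R 4.3.3: filterByExpr (minimum count 10, minimum total 15), TMM, 1 coefficient per group over all libraries (16 residual degrees of freedom) and two-sided quasi-likelihood tests with Benjamini-Hochberg adjustment, threshold 0.05. CPM values are TMM-normalized. The SE was taken as |log2 FC| over the square root of F. Totals of 11077368 to 21901406 reads per library set the precision, and limits cover counting error only, as reads carry no molecular identifiers.

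The members and lists were chosen with earlier results of these data known. Named are all 10 transporters, up to 3 genes with the smallest p per list and comparison (of which the text gives some), and the most alike gene per transporter whose mean log2 CPM reached 2. SCO2, of the copper list, was not found by identifier. Single-gene results for 2 list genes, which stay in the list counts, are not reported here. Exon lengths and overlaps come from GENCODE release 44, which holds 56948 of the 63299 identifiers. Tried as alternatives were size factors as in DESeq2, library size alone, no filter, counts left unrounded, a replicate block, the compared groups alone, DESeq2 1.42.0, each library left out, and the longest transcript as length. The fit was also run on simulated counts in which few genes changed, in treated A2780 of 12 h alone and by more than most transporters did. That run does not test the fit under the broad changes seen here. Figures were drawn with matplotlib 3.10.9.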

Additional observations from a re-analysis of the deposited data

Results flagged for a closer look

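For 3 transporters the response to 12 h of drug differed between the lines by the test of the difference itself (A2780cis minus A2780, in log2 FC). ATP7B differed by −0.79, with log2 FC values of 0.09 in A2780 and −0.71 in A2780cis. ABCC1 differed by −0.58, from −0.54 to −1.13. ATP7A differed by −0.51, from 0.28 to −0.23, and neither of its responses was called alone.

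The same test singled out 15 results for genes of the related lists. At 6 h these were TAP1 at 1.15, SLC47A1 at −0.52, RXRA at −1.77 and NHERF1 at −0.85. At 12 h the response was higher in A2780cis for TAP1 (2.41), MT2A (1.27), TMEM205 (0.70), SOD1 (0.54) and LRRC8D (0.40). It was lower there at 12 h for ABCG4 (−1.35), RDX (−1.07), STEAP3 (−0.66), SP1 (−0.60), SLC22A5 (−0.58) and EZR (−0.53). Groups of 3 libraries were not searched for outlying samples.

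Some of these differences did not keep their call. That of SLC47A1 ended without any of 9 of the 12 libraries (all but the second untreated A2780 and the first and the third untreated A2780cis library, adjusted p up to 0.101), with no filter on low counts (0.236) and with the compared groups alone (0.125). That of NHERF1 ended without the first untreated A2780, the first treated A2780 or the first treated A2780cis library (up to 0.0741) and with the compared groups alone (0.0505). That of LRRC8D ended without any of 5 of the 12 libraries (the second untreated and the third treated A2780, the second and the third untreated and the first treated A2780cis library, up to 0.0760), with scaling by library size alone (0.101) and with no filter (0.205). SLC22A5 lost its call without the first treated A2780 library (0.0502), and SOD1 and TMEM205 lost theirs without the third treated A2780cis library (0.0508 and 0.0504).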

How the results depend on the processing

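None of the transporter results that changed sign was called in the reported analysis. With scaling by library size alone, the 6 h response in A2780 was 0.0387 for ABCC1 and 0.039 for SLC31A2, and 1 transporter instead of 2 was called in A2780cis at 6 h. In untreated A2780 over time, ABCC2 came to −0.0201 and ABCG2 to −0.013 with size factors as in DESeq2, and to −0.0136 and −0.0075 with the DESeq2 Wald test. The ABCG2 difference in response between the lines at 6 h was 0.0021 in a fit of the compared groups alone. Over time in untreated A2780cis, 2 transporters instead of 1 were called with size factors as in DESeq2, with the compared groups alone, with DESeq2 and with the replicate block. On the length of the longest transcript, untreated A2780 of 12 h had 21.9 (SLC31A1), 12.1 (ABCC1), 11.2 (ABCC4), 3.65 (SLC31A2), 2.33 (ATP7B), 1.42 (ATP7A), 0.564 (ABCG2) and 0.26 (ABCC2) CPM per kilobase. Of the other results for single transporters under these settings, 16 gained and 11 lost a call and 526 kept direction and side of the threshold.

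The replicate numbers were not taken to pair the libraries: deviations of same-numbered libraries correlated at −0.254 to 0.312, and in no comparison did all 3 pairs exceed 0.1. With the number as a block, 6 instead of 5 transporters were called for treatment in A2780 at 12 h (ATP7A added, adjusted p = 0.0403), 4 instead of 3 over time in untreated A2780 (ABCC4 added, 0.0370) and 2 instead of 1 in untreated A2780cis (ABCC1 added, 0.0270). The block raised the genes called for the line difference at 12 h from 10698 to 10921.

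When single libraries were left out, the transporters called ranged from 1 to 3 for the difference in response at 12 h and for untreated A2780 over time, and from 1 to 2 for treatment at 6 h in each line and untreated A2780cis over time. The genes called ranged from 357 to 642 for the difference in response at 6 h, from 3805 to 5987 for A2780 at 6 h, and from 1846 to 5697 and 4985 to 8421 over time in untreated A2780 and A2780cis. The lowest counts came without the first untreated A2780 library of 6 h, except in A2780cis over time, where the third untreated library of 12 h gave it. The difference in response at 6 h also fell to 372, 391 and 408 genes without the second treated A2780cis, untreated A2780cis and treated A2780 library, A2780 at 6 h to 3963 without the first treated library, and untreated A2780 over time to 2324 without the third library of 12 h. Log2 FC values that changed sign ran from −0.2984 to 0.0197 for the ABCG2 difference in response at 12 h, and at 6 h from −0.2524 to 0.185 for ABCG2, −0.3502 to 0.0622 for ABCC2 and −0.036 to 0.0878 for SLC31A1. Between untreated lines they ran from −0.1093 to 0.2935 for ABCC2 and −0.249 to 0.0683 for ABCG2 at 12 h, and −0.1312 to 0.0011 for ABCC4 at 6 h. For treatment they ran from −0.0266 to 0.2122 for ATP7B in A2780 at 12 h and −0.0471 to 0.3221 in A2780cis at 6 h, and in A2780 at 6 h from −0.1127 to 0.0164 for ABCC1, −0.3919 to 0.0454 for ABCG2 and −0.0661 to 0.0445 for SLC31A2. Over time in untreated A2780 they ran from −0.2208 to 0.1819 for ABCC2 and −0.1589 to 0.2149 for ABCG2. The causes were not tested.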
